A study of Mus musculus with 12 samples.

Results

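The core circadian clock was followed in mouse dermal fibroblasts through 10 genes: Arntl, Clock, Per1, Per2, Per3, Cry1, Cry2, Nr1d1, Nr1d2 and Dbp. They were taken by symbol from a table of 25239 genes, and all 10 passed the filter on low counts that left 14901 genes for testing. RNA was sequenced in bulk from live cells of back skin that carried SCA1, the product of Ly6a, and lacked CD45 and CD31. The mice were wild type male C57BL/6 animals of 8 weeks. One group was unwounded (NW), and the other groups had full-thickness excisional punch wounds of 4 mm, harvested after 16 h, 1.5 d or 3 d, with 3 mice in each of the 4 groups. All groups went through the same liberase digestion and sort before RNA was extracted. The hour of the day at wounding or harvest was not given in the sources used here. On a daily cycle, 16, 36 and 72 h after injury fall 16, 12 and 0 h after the hour of wounding. Whether that hour was the same in all wound groups is not known, nor is the hour at which NW was harvested. Wounding, wound age and clock hour thus cannot be told apart, also in the comparisons with NW.

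The clock is a loop of transcription and repression that runs in most cells, cultured skin fibroblasts included. BMAL1, encoded by Arntl, pairs with CLOCK and drives genes with an E-box in their promoters, among them the Per and Cry genes, Nr1d1, Nr1d2 and Dbp. PER and CRY proteins gather and block BMAL1 and CLOCK, while the REV-ERB receptors, encoded by Nr1d1 and Nr1d2, repress Arntl at elements that the ROR receptors also bind. DBP and its relatives TEF and HLF act at D-boxes, where NFIL3 opposes them. Per1 and Per2 are also known for acute responses to serum, cAMP and glucocorticoid signals.

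The libraries held 26389453 to 43493475 counted fragments, at which 3 fragments stand for 0.069 to 0.114 CPM (counts scaled to a common library size). Levels below are CPM scaled by TMM, as mean ± SD with n = 3 mice unless stated, and coordinates are in mm10. The gated genes matched the labels: Ly6a lay at 870 to 2916 CPM, while Ptprc (CD45) lay at 0 to 8.71 CPM and Pecam1 (CD31) at 0.0443 to 3.98 CPM. The fibroblast receptor Pdgfra, which was not gated on, lay at 104 to 179 CPM in NW and 283 to 974 in wounds. The 8 fibroblast markers, Ly6a and Pdgfra among them, summed to 84970 to 186100 CPM in NW and 38370 to 104200 at 16 h. They summed to 85480 to 106400 CPM at 1.5 d and 116200 to 235800 at 3 d. At 16 h against NW, 1 of the 8 was called higher and 3 lower, beside 13.5% and 11.2% of all genes. Keratinocyte RNA was present and uneven: its 12 markers, all of them detected in every library, summed to 18240 to 32970 CPM in NW, 7506 to 12690 at 16 h, 3669 to 6553 at 1.5 d and 838 to 11610 at 3 d. Krt14 alone reached 5072 to 9352 CPM in NW and 411 to 6707 at 3 d. The 10 leukocyte markers summed to 42.4 to 108 CPM over all 12 libraries, with Cd3e at 0 in each. Of the 9 tested, 4 were called higher and 1 lower at 16 h. Csf1r, which made up most of the sum in NW, was at 60.1 ± 29.4 CPM in NW and 16.6 ± 4.62 at 16 h, while Lyz2 was at 3.33 ± 2.34 and 22.2 ± 11.2 and Itgam at 0.11 ± 0.138 and 4.16 ± 1.51. The 7 endothelial markers summed to 67.1 to 109 CPM in NW and 7.95 to 55.4 in wounds, mostly from Tek, and the 7 pericyte and smooth muscle markers to 52.7 to 98.5 in NW and 17.6 to 104 in wounds. The 5 adipocyte markers summed to 12.2 to 45.2 CPM in NW and 0.753 to 7.01 in wounds, and the 3 of them that could be tested passed the F test described below. The part of leukocyte, endothelial, pericyte and adipocyte RNA in the clock values was not tested. In bulk RNA, fewer cells of a type and less RNA per cell cannot be told apart.

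Of the 10 clock genes, Per1, Per2 and Nr1d1 differed among the 4 groups (edgeR quasi-likelihood F test over the 3 wound coefficients, Benjamini-Hochberg adjusted p under 0.05 over all genes tested). That is 3 of 10 beside 29.7% of all genes tested. Per2 was about 10 to 15 times as high in wounds as in NW, Per1 was lower in wounds, and Nr1d1 was lower at 3 d. The other members, Arntl, Clock, Per3, Cry1, Cry2, Nr1d2 and Dbp, did not pass, with adjusted p from 0.0683 for Cry2 to 0.550 for Dbp. At 16 h against NW, 1 member was called higher and 1 lower, beside 13.5% and 11.2% of all genes (24.7% in either direction). At 1.5 d the calls were again 1 higher and 1 lower, beside 13.7% and 10.8% (24.5%). At 3 d they were 1 higher and 2 lower, beside 12% and 9.15% (21.1%). The members' median log2 difference from NW was 0.21, -0.36 and -0.56 in that order of wound age, where that of all genes was -0.04, 0.01 and 0.00.

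**Figure D1:**
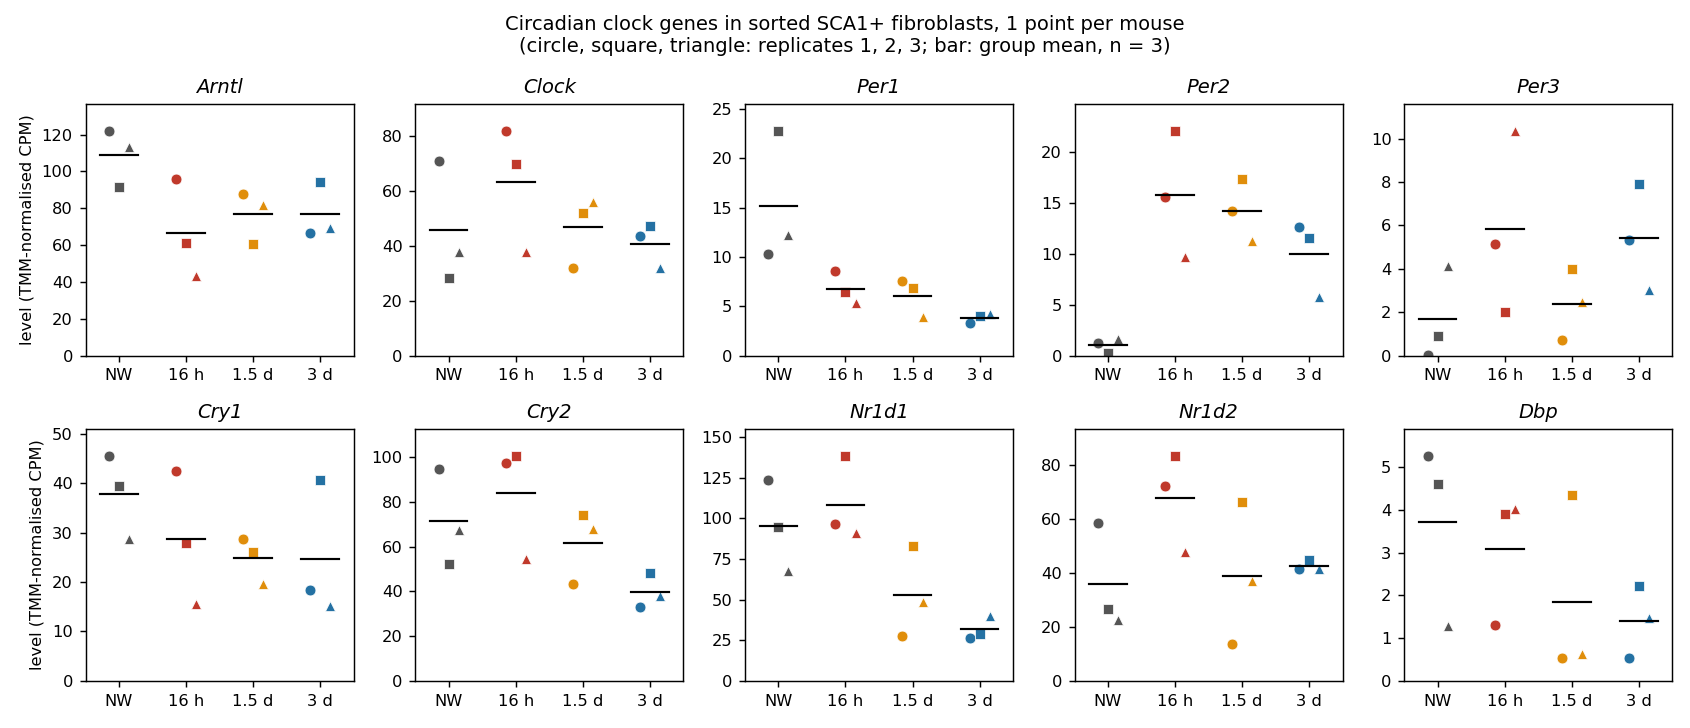
Level of each of the 10 clock genes in TMM-normalised CPM on linear axes from 0, by group (NW, unwounded; 16 h, 1.5 d and 3 d after wounding), with 1 point per mouse (circle, square and triangle for replicates 1, 2 and 3) and a bar at the group mean, n = 3. Per2 lies below 1.6 CPM in all NW mice and above 5.7 CPM in all wound mice, Per1 lies above 10 CPM in NW and below 8.6 CPM in wounds, and the other genes overlap between NW and at least 1 wound age.

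Promoter letters are shown first, because the loop is defined by the elements that its genes carry. RefSeq promoter windows (GRCm38.p6, 250 bases before to 50 after a gene's start) were found for 9 of the 10 genes, all but Per2. The E-box CACGTG, read on both strands, was in the windows of Per1 and Cry1, and in 8.09% of all genes with a window. The variant CACGTT was in Cry1, Cry2 and Nr1d1 and in 5.44% of genes. The D-box TTANNTAA occurred at 2 places in Per3 and in 6.93% of genes. The ROR and REV-ERB core TAGGTCA was in Arntl and in 2.97% of genes, while TGGGTCA, in 4.57% of genes, was in no member's window. The cAMP half-site TGACG was in Per1, Cry1 and Cry2 and in 23.05% of genes. A match of letters is a description and not a bound site. The stretches below run 5′ to 3′ on the gene's own strand, with matches in capitals. Per1 is shown because it fell in wounds, Nr1d1 because it fell at 3 d, and Cry1, Per3 and Arntl because they hold the other elements of the loop and did not pass the F test.
Per1, E-box, chr11:69098753-69098818, plus strand: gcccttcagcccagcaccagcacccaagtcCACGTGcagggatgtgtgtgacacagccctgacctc
Nr1d1, E-box variant, chr11:98775378-98775435, minus strand: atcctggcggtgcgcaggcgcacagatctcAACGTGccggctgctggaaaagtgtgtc
Cry1, E-box variant and E-box, chr10:85185079-85185144, minus strand: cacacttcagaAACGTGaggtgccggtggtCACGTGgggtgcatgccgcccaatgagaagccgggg
Per3, D-box pair, chr4:151044796-151044890, minus strand: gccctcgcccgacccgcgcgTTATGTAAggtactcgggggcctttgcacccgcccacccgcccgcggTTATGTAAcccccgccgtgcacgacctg
Arntl, ROR and REV-ERB core, chr7:113207530-113207558, plus strand: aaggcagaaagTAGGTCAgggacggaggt
The Per1 E-box and the Cry1 E-box carry the same 6 letters in different flanks, and the Per1 match lies at -166 to -161 from the start, against -60 to -55 in Cry1.

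Arntl (chr7:113207465-113314126, plus strand) encodes BMAL1, the activator. Per kilobase of full exon length its mean over the 12 libraries was 28.1 CPM per kb, near the 26.1 CPM per kb of Nr1d1. Part of the Nr1d1 exon length is shared with another gene, as described below for Nr1d1, so the order of these 2 is uncertain. Its level in NW was 122, 91.8 and 113 CPM in replicates 1, 2 and 3, and 95.9, 61.0 and 43.04 CPM at 16 h. At 1.5 d it was 87.5, 60.9 and 81.5 CPM, and at 3 d 66.8, 94.0 and 69.2 CPM. The 3 NW mice were the higher ones, but 1 mouse at 16 h and 1 at 3 d reached into their range. The difference at 16 h was -0.71 on the log2 scale (SE 0.28), with an adjusted p of 0.0793 by the edgeR quasi-likelihood test, and the F test gave an adjusted p of 0.203. Without 16 h replicate 1, the highest mouse of its group, the difference was -1.07 with an adjusted p of 0.0185. DESeq2 and limma-voom also called it, at adjusted p of 0.0359 and 0.0476. Clock (chr5:76209868-76304792, minus strand), the partner of BMAL1, was at 28.3 to 71.03 CPM in NW, 37.9 to 82.1 at 16 h, 32.0 to 56.2 at 1.5 d and 31.8 to 47.2 at 3 d. All 4 groups overlapped, and the F test gave an adjusted p of 0.502.

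Per1 and Per2, the negative arm's best known members, moved in opposite directions after wounding. Per1 (chr11:69098949-69109957, plus strand) was at 10.3, 22.8 and 12.2 CPM in the NW mice and at 8.54, 6.48 and 5.30 CPM at 16 h. It was at 7.53, 6.82 and 3.87 CPM at 1.5 d and at 3.34, 3.98 and 4.23 CPM at 3 d. Every wound mouse was below every NW mouse, and NW replicate 2 stood well above the other NW mice. Per1 fell 2.23-fold at 16 h (log2 -1.16, SE 0.39, edgeR adjusted p = 0.0463) and 2.49-fold at 1.5 d (log2 -1.32, SE 0.39, adjusted p = 0.0276). It fell 3.93-fold at 3 d (log2 -1.97, SE 0.40, adjusted p = 0.00431), and the F test over the groups gave an adjusted p of 0.00923.

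The Per1 call at 16 h stood near the threshold. It was lost in 15 of 21 alternatives, among them the omission of any 1 library other than NW replicate 1 or 1.5 d replicate 3, where the adjusted p was 0.0511 to 0.222. The highest of these came without NW replicate 2, when the log2 difference was -0.73. At 1.5 d the call was lost without NW replicate 2 (log2 -0.89, adjusted p = 0.144), without 1.5 d replicate 2 (-1.40, 0.0556) or without 1.5 d replicate 3 (-1.07, 0.111). Without NW replicate 2 the F test gave an adjusted p of 0.0667, while the 3 d call held in each of the 12 omissions, at adjusted p of 0.00417 to 0.0241.

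Per2 (chr1:91415982-91459328, minus strand) was close to absent from unwounded fibroblasts, at 1.26, 0.263 and 1.59 CPM, which rest on 33, 8 and 48 fragments. In wounds it was at 15.6, 22.1 and 9.73 CPM at 16 h, at 14.2, 17.3 and 11.3 CPM at 1.5 d, and at 12.6, 11.6 and 5.75 CPM at 3 d. No wound mouse came near the NW range. The 16 h mice had 290 to 735 fragments, so that counting error was small beside the spread between mice. Per2 rose 15.2-fold at 16 h (log2 3.93, SE 0.59, edgeR adjusted p = 0.000527), 13.7-fold at 1.5 d (log2 3.78, SE 0.58, adjusted p = 0.000721) and 9.61-fold at 3 d (log2 3.26, SE 0.57, adjusted p = 0.00178). The F test gave an adjusted p of 0.00177. The 3 wound ages were not called apart from each other for Per2.

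Per3 (chr4:151003655-151044665, minus strand), which is thought to be less essential to the rhythm than the other Per genes, was the least abundant member per kilobase over the 12 libraries, at 0.634 CPM per kb, and the most uneven within groups. In the NW mice it was at 0.0382, 0.921 and 4.11 CPM, the first from a single fragment. It was at 5.14, 2.02 and 10.4 CPM at 16 h, 0.700, 3.99 and 2.48 CPM at 1.5 d, and 5.33, 7.91 and 3.04 CPM at 3 d. The groups overlapped throughout, and the F test gave an adjusted p of 0.419. Its pooled SD within groups was 1.63 on the log2 scale, the widest of the 10.

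**Figure D2:**
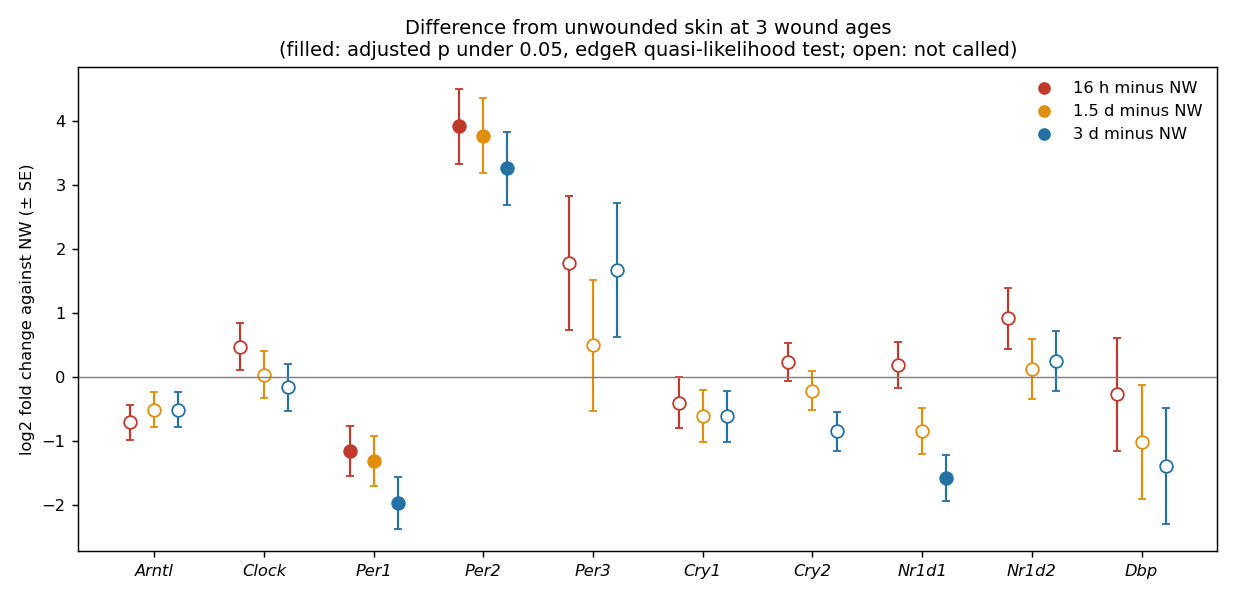
Difference of each clock gene from NW on the log2 scale at 16 h, 1.5 d and 3 d (red, orange and blue), as the edgeR estimate. Bars are ± SE, back-calculated from the fit over all 12 libraries with 3 mice per group. Filled points are called at an adjusted p under 0.05 by the edgeR quasi-likelihood test. The filled points are Per2 between 3.26 and 3.93, Per1 between -1.97 and -1.16, and Nr1d1 at 3 d at -1.58.

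Keratinocyte RNA and immediate early transcripts also differed between NW and wounds. Both were higher in NW, as Per1 was, while Per2 was lower there. The keratinocyte sums given above were highest in NW. With the mean log2 level of those 12 markers as a covariate, Per2 at 16 h had a log2 difference of 3.67 (edgeR adjusted p = 0.00465). Its differences at 1.5 d and 3 d were 3.30 and 2.78, with adjusted p of 0.106 and 0.104. Per1 was then lower by -0.89, -0.81 and -1.49 on the log2 scale at 16 h, 1.5 d and 3 d, with adjusted p of 0.261, 0.693 and 0.347. Under this covariate the share of all genes called against NW was 11%, 1.09% and 2.19%. The marker level moved with the groups, and the fit cannot fully tell them apart. The 12 immediate early genes, such as Nr4a1, Btg2 and Ier2, summed to 17680 to 21250 CPM in NW and to 5848 to 11030 CPM in wounds, and all 12 passed the F test. Nr4a1, a nuclear receptor, was at 664 to 837 CPM in NW and 144 to 347 CPM in wounds. Btg2, an antiproliferative gene, was at 834 to 949 CPM in NW and 289 to 450 CPM in wounds. Ier2, an immediate early response gene, was at 380 to 557 CPM in NW and 81.4 to 264 CPM in wounds. Of 5 glucocorticoid-responsive genes, Sgk1, Tsc22d3 and Zbtb16 passed the F test in different directions. Sgk1, a kinase of ion transport and survival, was at 129 to 158 CPM in NW and 523 to 782 CPM in wounds. Tsc22d3, known as GILZ, was at 131 to 153 CPM in NW and 12.0 to 46.8 CPM in wounds, and the transcription factor gene Zbtb16 at 42.6 to 74.3 and 2.67 to 20.7 CPM. The part of immediate early and glucocorticoid-responsive expression in the Per values was not tested.

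The cryptochromes, the repressors that PER proteins accompany, varied less. Cry1 (chr10:85131700-85185054, minus strand) was at 45.5, 39.4 and 28.8 CPM in NW, at 15.6 to 42.6 CPM at 16 h, 19.6 to 28.7 CPM at 1.5 d and 15.2 to 40.6 CPM at 3 d. All 3 mice at 1.5 d were below the lowest NW mouse, and the other wound ages overlapped with NW. The F test gave an adjusted p of 0.526.

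Cry2 (chr2:92403647-92434069, minus strand) was at 94.9, 52.1 and 67.6 CPM in NW and at 97.6, 100.6 and 54.4 CPM at 16 h. It was at 43.5, 74.2 and 67.8 CPM at 1.5 d and at 33.1, 48.1 and 38.2 CPM at 3 d. The 3 d mice were below all NW and all 16 h mice. Cry2 was called 2.12-fold lower at 3 d than at 16 h (log2 -1.08, SE 0.30, edgeR adjusted p = 0.0411), where 9.53% of all genes were called and 3.67% were called lower. Against NW the 3 d difference was -0.85 (SE 0.30, adjusted p = 0.0632), and the F test gave an adjusted p of 0.0683. The call against 16 h was lost in 10 of 21 alternatives, among them the omission of any 1 library other than NW replicate 1, NW replicate 2, 16 h replicate 3 or 1.5 d replicate 1, at adjusted p of 0.0523 to 0.148. Against NW it was called without NW replicate 2 (log2 -1.03, adjusted p = 0.0496) or without 16 h replicate 3 (-0.84, 0.0434), and without the latter the F test gave 0.0278. DESeq2 and total-count scaling called it too, at adjusted p of 0.0331 and 0.0354, with 0.0311 and 0.0296 for the difference among the groups. Of the Cry2 exon length, 3.72% is shared with D930015M05Rik on the other strand, a gene at under 0.8 CPM in every library.

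The REV-ERB receptors parted by 3 d. Nr1d1 (chr11:98767932-98775377, minus strand), which encodes REV-ERB alpha, was at 123.4, 94.8 and 67.6 CPM in NW and at 96.5, 138 and 90.7 CPM at 16 h. It was at 27.6, 83.3 and 48.5 CPM at 1.5 d and at 26.5, 28.7 and 40.2 CPM at 3 d. The 16 h mice lay in or above the NW range, the 1.5 d mice were spread over 3 times their lowest value, and the 3 d mice were below all NW and 16 h mice. Nr1d1 fell 2.99-fold at 3 d against NW (log2 -1.58, SE 0.37, edgeR adjusted p = 0.00856) and was 3.41-fold lower at 3 d than at 16 h (log2 -1.77, SE 0.37, adjusted p = 0.0092). The F test gave an adjusted p of 0.00869. At 1.5 d the difference from NW was -0.84 (SE 0.36, adjusted p = 0.105) and that from 16 h was -1.03 (SE 0.36, adjusted p = 0.152).

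Without 1.5 d replicate 2, the highest mouse of its group, Nr1d1 at 1.5 d was lower than NW by -1.32 on the log2 scale (edgeR adjusted p = 0.0199). With the keratinocyte covariate the 3 d difference from NW was -1.24 (adjusted p = 0.371) and the F test gave 0.0896. The call between 3 d and 16 h held under all 21 alternatives. Nr1d1 shares 9.51% of its exon length with Thra, the thyroid hormone receptor gene on the other strand, and without strand a fragment there cannot be given to either. Thra was at 43.8 to 54.5 CPM in NW, 15.3 to 23.5 at 16 h, 22.7 to 35.9 at 1.5 d and 23.6 to 29.0 at 3 d. The part of the shared stretch in the Nr1d1 values was not tested.

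Nr1d2 (chr14:18204056-18239106, minus strand), which encodes REV-ERB beta, was at 58.6, 26.5 and 22.4 CPM in NW and at 72.3, 83.2 and 47.8 CPM at 16 h. It was at 13.6, 66.4 and 37.0 CPM at 1.5 d and at 41.6, 44.7 and 41.3 CPM at 3 d. The 3 d mice were close together and inside the NW range, and the F test gave an adjusted p of 0.360. Dbp (chr7:45705247-45710203, plus strand), a clock output that acts at D-boxes, was low, at 5.27, 4.61 and 1.29 CPM in NW and 0.529, 2.23 and 1.48 CPM at 3 d. At 16 h it was at 1.30 to 4.03 CPM and at 1.5 d at 0.533 to 4.36 CPM, and all groups overlapped (F test adjusted p = 0.550). As 32.12% of its exon length is shared with Sphk2 on the other strand, at 8.22 to 42.7 CPM over the libraries, Dbp values cover only the rest of its exons with certainty.

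Between wound ages few members differed. From 16 h to 1.5 d the edgeR test called 0 of 10, beside 2.86% of all genes, with 1 member at an unadjusted p under 0.05, and DESeq2 and limma-voom called 0 each. From 1.5 d to 3 d it called 0 of 10, beside 0.141% of all genes, with 0 at an unadjusted p under 0.05 and 0 by either of the other tools. From 16 h to 3 d it called Cry2 and Nr1d1, both lower at 3 d. The groups compared with NW share the NW mice, so that the 3 wound comparisons are not independent of each other.

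Ratios between related members within a library remove what all genes share in that library, and they were chosen after the counts were seen, so no test is given. Per1 over Per2, per kilobase of exon, was 9.53 to 107 in NW, 0.362 to 0.679 at 16 h, 0.427 to 0.656 at 1.5 d and 0.328 to 0.912 at 3 d. Per1 was thus the more abundant of the pair in every NW mouse and the less abundant in every wound mouse. Nr1d1 over Nr1d2 was 3.54 to 6.01 in NW, 2.24 to 3.19 at 16 h, 2.11 to 3.39 at 1.5 d and 1.07 to 1.63 at 3 d. The NW range did not overlap with any wound age, and the 3 d mice were below all others. Arntl over Clock was 5.83 to 10.99 in NW and 2.95 to 3.96 at 16 h, with 1.5 d at 3.97 to 9.27 and 3 d at 5.20 to 7.38. Arntl over Nr1d1 was 0.914 to 1.59 in NW, 0.416 to 0.939 at 16 h, 0.69 to 3.00 at 1.5 d and 1.63 to 3.09 at 3 d, so that Nr1d1 was the more abundant per kilobase in all 3 mice at 16 h and the less abundant in all 3 at 3 d. Cry1 over Cry2 was 0.565 to 1.00 in NW and 0.369 to 1.121 over the wounds, with overlap.

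**Figure D3:**
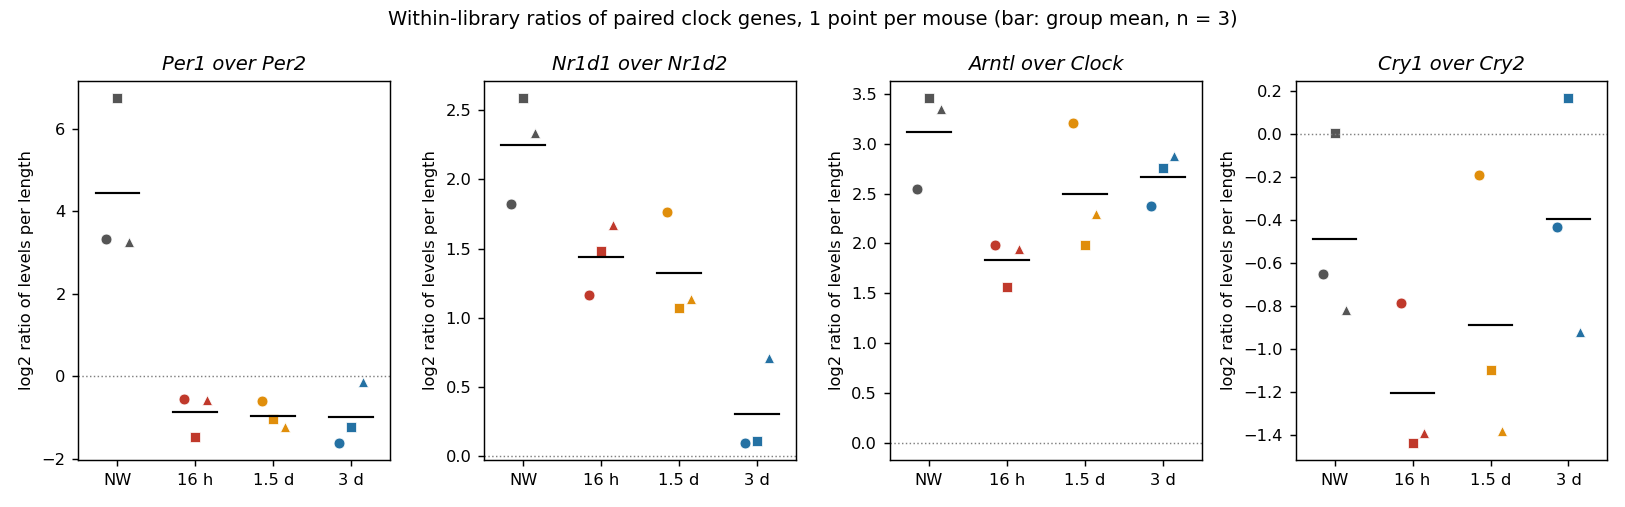
Log2 ratio of 2 related clock genes in the same library (levels per kilobase of exon), by group, with 1 point per mouse (circle, square and triangle for replicates 1, 2 and 3), a bar at the mean of the 3 mice and a dotted line at equal levels; each panel has its own scale. Per1 over Per2 is above the line in all NW mice and below it in all wound mice, and Nr1d1 over Nr1d2 is nearest to it at 3 d.

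Levels per kilobase use the full exon length, of which 3.72% in Cry2, 9.51% in Nr1d1 and 32.12% in Dbp is shared with other genes. The places of these genes in an order are thus uncertain, those of Nr1d1 and Dbp most. By group means, the order of abundance per kilobase of exon differed between groups at its top, in its middle and at its lower end. In NW it ran Arntl (37.3 ± 5.36 CPM per kb), Nr1d1 (34.5 ± 10.1), Cry2 (17.9 ± 5.41), Cry1 (12.6 ± 2.80), Nr1d2 (7.72 ± 4.27), Clock (4.599 ± 2.26), Per1 (3.21 ± 1.43), Dbp (2.22 ± 1.27), Per3 (0.2796 ± 0.355) and Per2 (0.178 ± 0.119). Of these neighbours, Nr1d1 and Cry2 had ranges over the 3 mice that did not overlap, as had Dbp and Per3, and the other neighbours overlapped. At 16 h Nr1d1 was first at 39.3 ± 9.42 CPM per kb and Arntl was at 22.8 ± 9.18. At 3 d Arntl was first at 26.2 ± 5.15 CPM per kb, followed by Nr1d1 at 11.5 ± 2.66, Cry2 at 9.94 ± 1.91, Nr1d2 at 9.16 ± 0.415 and Cry1 at 8.2 ± 4.59. Apart from Arntl, the ranges of these genes overlapped. By its mean, Per2 at 1.71 ± 0.64 was at 3 d above Per3 at 0.897 ± 0.403, Dbp at 0.843 ± 0.508 and Per1 at 0.817 ± 0.0974. The Per2 range overlapped with those of Per3 and Dbp and not with that of Per1.

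The members also varied among mice of 1 group. Their pooled SD within groups had a median of 0.54 on the log2 scale, beside 0.485 for all genes tested, and 7 of 10 were above the latter. At 1.5 d, replicate 2 was the highest mouse for Per2, Per3, Cry2, Nr1d1, Nr1d2 and Dbp, which makes 6 members. Replicate 1 was the lowest for Clock, Per3, Cry2, Nr1d1, Nr1d2 and Dbp, also 6, and the highest for Arntl, Per1 and Cry1. At 16 h replicate 3 was the lowest for 8 members, with Per3 and Dbp the exceptions. At 3 d replicate 2 was the highest for 7 members, and in NW replicate 1 was also the highest for 7. How often these libraries were highest or lowest over all genes was not counted.

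The wider clock was read from 22 further genes, of which all were tested and 7 passed the F test, beside the 29.7% of all genes. Against NW, 1 was called higher and 7 lower at 16 h, beside 13.5% and 11.2% of all genes. At 1.5 d 0 were called higher and 5 lower, beside 13.7% and 10.8%. At 3 d 0 were called higher and 5 lower, beside 12% and 9.15%. DESeq2 called 8, 6 and 7 of the 22 in the same order, beside 31.4%, 31.2% and 28.1% of all genes by that tool. Their median log2 difference was -0.32, -0.30 and -0.28, with that of all genes given above. All calls except that of Csnk1d, a kinase gene of PER proteins, were lower in wounds. Csnk1d was at 183 ± 15.1 CPM in NW and 275 ± 38.7 at 16 h (log2 0.59, SE 0.17, edgeR adjusted p = 0.0266), a call lost without NW replicate 1, NW replicate 3, 16 h replicate 1 or 16 h replicate 2, at adjusted p of 0.0584 to 0.101. With the keratinocyte covariate none of the 22 was called against NW, where 11%, 1.09% and 2.19% of all genes were called in order of wound age.

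Among the ROR receptors, which activate Arntl, Rora fell from 276 ± 18.3 CPM in NW to 125 ± 24.3 at 16 h, 83.2 ± 10.4 at 1.5 d and 90.5 ± 33.2 at 3 d. These were log2 differences of -1.14 (SE 0.25), -1.73 (SE 0.26) and -1.61 (SE 0.25), with edgeR adjusted p of 0.00575, 0.000554 and 0.00092. Rorb was at 7.56 ± 2.08 CPM in NW and 1.46 ± 1.37 at 16 h (log2 -2.37, SE 0.79, adjusted p = 0.0419), its only call, and did not pass the F test. That Rorb call was lost on the omission of any 1 library other than 16 h replicate 2, 3 d replicate 1 or 3 d replicate 3, at adjusted p of 0.0517 to 0.107. Rora and Nr1d1 were both lower at 3 d, and their products are known to regulate Arntl in opposite directions. Arntl was not called by the edgeR test at any wound age, though DESeq2 and limma-voom called it lower at 16 h, as given above. At 16 h Rora was lower and Nr1d1 was not called (log2 0.19). A link between the levels of these genes was not tested. Of the Rora exon length, 0.67% is shared with Gm15511 on the other strand.

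Of the D-box factors, Hlf fell from 15.7 ± 5.25 CPM in NW to 1.55 ± 0.98 at 16 h (log2 -3.33, SE 0.89, edgeR adjusted p = 0.0156) and 1.87 ± 1.63 at 3 d (log2 -3.07, SE 0.88, adjusted p = 0.0249). At 1.5 d it was at 3.16 ± 2.55 CPM (adjusted p = 0.0621). The 16 h call was lost without 16 h replicate 1 (adjusted p = 0.0586) or 16 h replicate 3 (0.0539). That at 3 d was lost without NW replicate 2 (0.055), NW replicate 3 (0.0688), 3 d replicate 1 (0.0905) or 3 d replicate 2 (0.0855). Nfil3, the repressor at the same element, fell from 107 ± 7.95 CPM in NW to 57.8 ± 10.9 at 16 h (log2 -0.89, SE 0.21, adjusted p = 0.00794) and 63.7 ± 8.33 at 1.5 d (log2 -0.75, SE 0.21, adjusted p = 0.0186). Without NW replicate 2 or 1.5 d replicate 3 the latter had adjusted p of 0.0602 and 0.0866. Tef was not called, at 8.29 to 25.8 CPM in NW, 27.6 to 34.9 at 16 h, 9.43 to 29.0 at 1.5 d and 13.98 to 28.6 at 3 d (F test adjusted p = 0.287).

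Of the E-box repressors, Bhlhe40, which encodes DEC1, fell from 666 ± 5.91 CPM in NW to 403 ± 54.8 at 16 h (log2 -0.73, SE 0.22, edgeR adjusted p = 0.0277) and 395 ± 65.0 at 1.5 d (log2 -0.76, SE 0.22, adjusted p = 0.0236). Each call was lost in 5 of 12 omissions of 1 library: any NW replicate with both, 16 h replicates 2 and 3 with the first, and 1.5 d replicates 1 and 3 with the second, with adjusted p between 0.0516 and 0.104. Bhlhe40 shares 3.79% of its exon length with 0610040F04Rik on the other strand. Cipc, an inhibitor of CLOCK, fell from 16.4 ± 3.9 CPM to 6.48 ± 1.93 at 3 d (log2 -1.34, SE 0.34, adjusted p = 0.0141), a call lost without NW replicate 1 (0.0543) or 3 d replicate 1 (0.0724). Usp2, a deubiquitinase of clock proteins with rhythmic expression, fell from 82.4 ± 7.28 CPM to 41.8 ± 10.6, 40.1 ± 5.33 and 19.7 ± 4.62 at the 3 wound ages. Its log2 differences were -0.98 (SE 0.25), -1.04 (SE 0.25) and -2.06 (SE 0.25), with adjusted p of 0.0115, 0.00831 and 0.000163. Wee1, a cell cycle kinase gene and clock output, fell from 103 ± 6.44 CPM to 30.2 ± 20.2, 17.7 ± 9.57 and 25.5 ± 6.29, with log2 differences of -1.78 (SE 0.45), -2.54 (SE 0.46) and -2.02 (SE 0.45). The adjusted p were 0.0119, 0.00185 and 0.00716, and without 16 h replicate 2 that at 16 h was 0.0582.

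**Figure D4:**
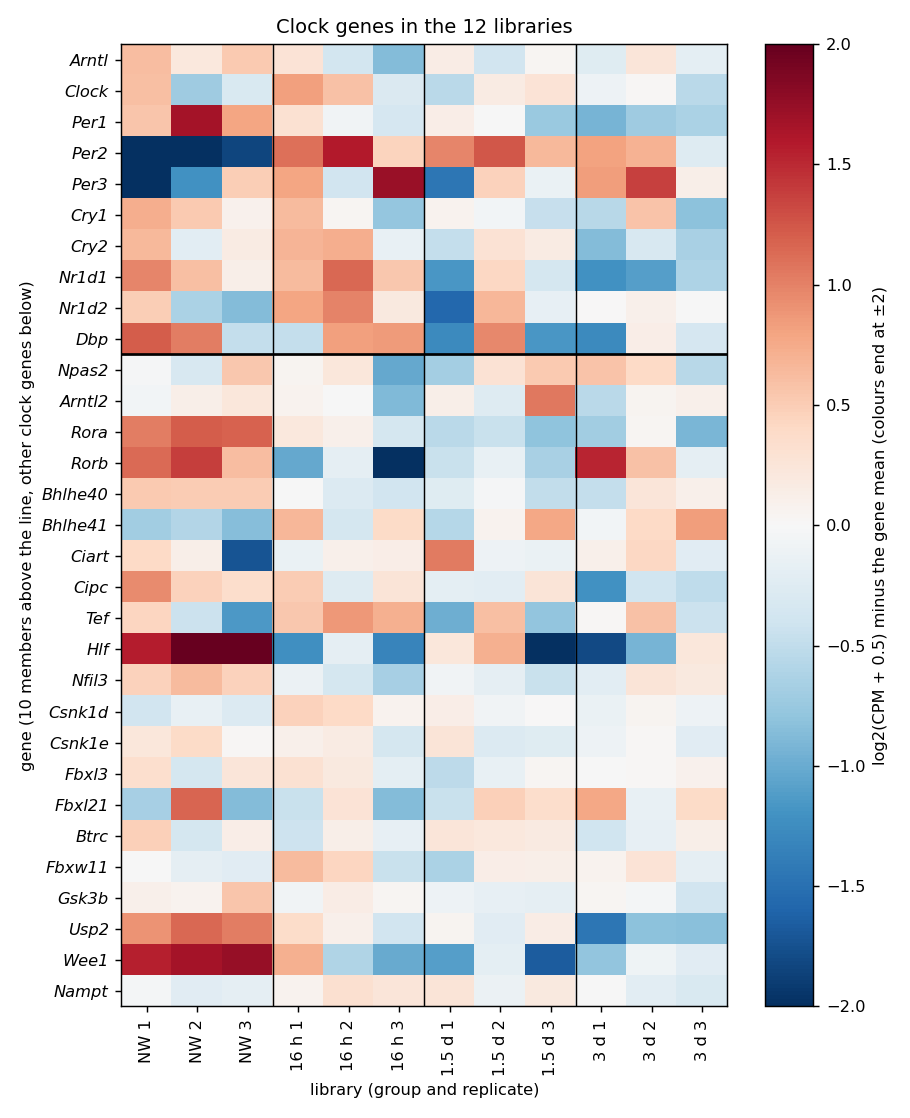
Level of the 10 members (above the line) and other clock genes in each of the 12 libraries, as log2(CPM + 0.5) minus the gene's mean over the libraries, with colours ending at ±2; blue is below the gene's mean and red above it. Per2 is blue in the 3 NW libraries, where Per1, Rora, Hlf, Usp2 and Wee1 are red, and Nr1d1 is blue in the 3 d libraries.

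The genes whose pattern lay nearest to each changed member were found among 10236 tested genes that averaged 5 CPM or more, by the root mean square difference of log2 level about the gene's mean over 12 libraries. Nearest to Per2 were Thbs4 (0.46), Eps8 (0.53) and Sh2b2 (0.56), where the median gene lay at 1.82. Nearest to Per1 were Mul1 (0.25), Sun2 (0.27) and Ccrl2 (0.29), with the median gene at 0.91. Nearest to Nr1d1 were Flvcr1 (0.42), Bud13 (0.42) and Armc7 (0.44), with the median gene at 0.96. None of these 9 is a gene of the clock lists. Of the clock-list genes compared, the nearest to Nr1d1 was Cry2 (rank 13, 0.498) and the nearest to Per1 was Usp2 (rank 37, 0.376). For Per2 it was Csnk1d (rank 2967, 1.64). Among the members that did not pass the F test, Tef had rank 4 in nearness to Nr1d2 at 0.38 and Nr1d1 had rank 3 in nearness to Dbp at 0.76. These distances describe 12 libraries that share 4 groups and carry no test.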

How the data were processed

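Bulk RNA of 12 sorted fibroblast libraries, 1 per mouse, was analysed from the deposited table of counts of read pairs per gene. Per the file headers, the authors counted with featureCounts 2.0.0 over exons of refGene on mm10, with no strand, multi-mapping or overlap option. STAR, SAMtools, Subread and Partek are named without versions, per the submitters' processing notes. Exon length is the other deposited column, taken as given in the file. Per the labels' protocols, cDNA was made with SMART-Seq v4 and libraries with Nextera XT, kits that do not mark strand.

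Genes were filtered with filterByExpr, scaled by TMM and fitted by group over all 12 libraries with robust edgeR 4.0.16 quasi-likelihood models in R 4.3.3. The 6 contrasts and the F test were adjusted by Benjamini-Hochberg over 14901 genes and called at an adjusted p under 0.05. SEs were back-calculated from each log2 difference and its F statistic, and are approximate. Levels per kilobase are CPM over exon length. The spread between mice, not counting error, limits the precision, and within groups no 2 libraries agreed within sampling noise. Alternatives were DESeq2 1.42.0 (size factors, test), total-count scaling, limma 3.58.1 voom, no filter, a filter of 1 CPM in 6 libraries, a replicate block, a keratinocyte covariate, only the 2 groups compared, and each library left out.

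The clock genes and the gene lists were chosen with earlier results of these data known. Named genes are the 10 members and the other clock genes called by the F test (up to 4 per role, by p). Also named are the 3 nearest genes of each called member, Pdgfra, and gate and keratinocyte markers. From the immediate early and glucocorticoid lists, 3 genes each were named by p. Csnk1d, Rorb, Tef, D930015M05Rik, Thra, Sphk2, Gm15511, 0610040F04Rik, Tek, Csf1r, Lyz2, Itgam and Cd3e were named after their values were seen. One gene counted among the other clock genes is not reported here by name.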

Additional observations from a re-analysis of the deposited data

How the results depend on the processing

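Per2 was called at 16 h and in the F test under every alternative run, and none of the fold changes of members given in the report changed sign. With the keratinocyte covariate, calls among the 10 members were 1 in the F test, 1 at 16 h, 0 at 1.5 d and 0 at 3 d against NW, and 1 at 3 d against 16 h, and calls among the 22 other clock genes were 1 in the F test and 0 at each wound age. Of all genes, 10.4% were then called in the F test and 6.09% for 3 d against 16 h. Against NW the share was 11%, 1.09% and 2.19% in order of wound age. Total-count scaling, no filter on low counts, the replicate block and the fit of only the 2 groups compared each gave 1 member at 16 h against NW, where Per1 was lost. In that order, 24.6%, 17.2%, 20.3% and 25.1% of all genes were called there. The fit of the 2 groups called 8 other clock genes at 1.5 d, beside 22.8% of all genes. Leaving out 1 library at a time gave 1 to 2 members at 16 h, 1 to 2 at 1.5 d, 3 to 4 at 3 d, 1 to 2 for 3 d against 16 h and 2 to 4 in the F test. For the other clock genes it gave 5 to 8 at 16 h, 3 to 6 at 1.5 d, 3 to 6 at 3 d and 3 to 7 in the F test. In these fits the share of all genes called moved too, at 14.5% to 24.3% at 16 h and 15.5% to 24.5% at 1.5 d. It was 11.8% to 21.1% at 3 d, 4.68% to 9.77% for 3 d against 16 h and 21.7% to 27.9% in the F test. Residuals of same-numbered libraries correlated at -0.17 to 0.17 over 18 pairs, of which 2 were over 0.1. Those of different-numbered libraries correlated at -0.20 to 0.20 over 36 pairs, of which 9 were over 0.1. With 3 mice per group, this cannot decide whether mice of 1 number were handled together. The replicate block left 1 member called for 3 d against 16 h, beside 6.8% of all genes. Cry2 was then at an edgeR adjusted p of 0.081, and Per1 at 16 h against NW at 0.0714. Of 47 member differences not given as fold changes, 19 changed sign under at least 1 alternative, and none of them was a called difference. For these the causes were not tested. Values rest on 3 mice per group, and Per3 and Dbp on few fragments in several libraries.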
